A study of Mus musculus with 157 samples.

Results

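Most of the genes described here act at the exit from mitosis or at the switch that lets a cell enter it, while Pif1 is a DNA helicase. All were picked by name from the count table of ribosome fractions: Cdc20, Ube2c, Fzr1, Pttg1, Fbxo5, Cdc25a, Cdc25b, Cdc25c, Cdkn3 and Pif1. Of these 10 genes, 9 had a row among the 19600 genes of the table. Cdc25c was not analysed here.

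The samples were cytoplasmic extracts of B cells from spleens of C57BL/6Babr mice aged 8 to 12 weeks, spread over sucrose gradients after 3 min in cycloheximide (100 µg/ml), which holds ribosomes on the mRNA. All cells received lipopolysaccharide (LPS), a bacterial mitogen for B cells, at 10 µg/ml. The LPS group had 48 h of LPS and nothing else. The LPS+ET group had, in addition, the topoisomerase II poison etoposide at 20 µM for 4 h, which leaves double-strand breaks in DNA. The LPS+ET+KU group, which per the labels had 47 h of LPS, received KU55933, an inhibitor of the damage kinase ATM, at 10 µM for 1 h before etoposide at the same dose. Each group had 4 gradients, 1 under each of the codes LUL15 to LUL18 in the column names. The codes are called pools here, though the names do not say what they stand for. Each gradient gave 13 libraries of mRNA 3′ ends, from fractions 4 to 16. Fractions 4 to 7 held monosomes, 8 to 10 light polysomes and 11 to 16 heavy polysomes.

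The anaphase-promoting complex (APC/C) is a ubiquitin ligase that ends mitosis by marking securin and the mitotic cyclins for destruction. Cdc20 switches it on at the metaphase to anaphase step and Fzr1 (also called Cdh1) later in mitosis and in G1, Ube2c is the E2 enzyme that starts the ubiquitin chains, and Fbxo5 (Emi1) holds the complex off in S and G2 phase. The Cdc25 phosphatases act at the other end, where they remove inhibitory phosphates from cyclin-dependent kinases, and the kinases of the DNA damage checkpoint restrain them.

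Gradients held between 6404957 and 21449781 counts, and single libraries between 14724 and 4170688 (median 811932). Under 100000 counts were found in 12 of the 156 libraries, 4 of which were heavy polysome libraries of the LPS+ET gradient of pool LUL16. That gradient had 30.4% of its counts in heavy polysome libraries, against 37.6 to 68.2% in the other 11, and it and the LPS+ET+KU gradient of the same pool stand apart in several results below. As a check of the treatment, Cdkn1a (p21) rose from 28.4 ± 4.68 to 705 ± 176 CPM (counts scaled to a library of fixed size, so that gradients of different depth compare) with etoposide and Mdm2 from 77.7 ± 4.62 to 410 ± 70.1 CPM (SD, n = 4; edgeR adjusted p = 5.28e-07 and 8.47e-06). The 7 B cell markers examined summed to 6180 to 9124, 7094 to 9807 and 7415 to 10882 CPM in the groups in the order given above, a sum carried by Cd74 (means 6334, 6726 and 6568 CPM). With etoposide 6 of the 7 had a log2 fold change below 0 (median -0.72), and 6 of 6 myeloid markers had one above 0 (median 0.72). Of the B cell markers, 3 were called lower by edgeR where the pool was a block and none where it was not. Of all 12755 genes tested, these fits called 3403 and 1618 in either direction. The 5 T cell markers of 6 with a row summed to 130 to 159, 108 to 295 and 82.8 to 374 CPM, and the 6 myeloid markers to 33.5 to 88.6, 51.4 to 165 and 56.6 to 112 CPM. None of these markers was at 0 in all 12 gradients. Their part in the results was not tested.

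Each member was counted at the 3′ end of its mRNA. In GRCm38, Cdc20 lies on chromosome 4 (118432901 to 118437352), Ube2c on chromosome 2 (164769898 to 164778822), Fzr1 on chromosome 10 (81366222 to 81378516), Pttg1 on chromosome 11 (43420250 to 43426251) and Fbxo5 on chromosome 10 (5799160 to 5805600). Cdc25a lies on chromosome 9 (109875579 to 109893895), Cdc25b on chromosome 2 (131186949 to 131198497), Cdkn3 on chromosome 14 (46760541 to 46771669) and Pif1 on chromosome 9 (65587160 to 65595967). The major counted site of each lay in an untranslated exon, within 219 bases of an annotated transcript end, except that of Cdc25b, 3 bases past it. Cdc25a had 3 counted sites (88.8% of its counts at the major site) and Fbxo5 2 (83.6%), and the other members 1 each. The minor sites were not placed.

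Genes switched on late in the cell cycle are known for promoters with a CHR element (cell cycle genes homology region, TTTGAA) and CCAAT boxes. The promoters of 5 members are shown, those whose window ran no more than a set number of bases into the annotated gene. Of these, 3 hold both motifs and the others are the Cdc25 promoters. The windows run from 150 to 4 bases before the RefSeq start, 5′ to 3′ on the gene's strand, in GRCm38.p6. Capitals mark TTTGAA or CCAAT on either strand.
Cdc20 (minus strand, chr4:118437347-118437493): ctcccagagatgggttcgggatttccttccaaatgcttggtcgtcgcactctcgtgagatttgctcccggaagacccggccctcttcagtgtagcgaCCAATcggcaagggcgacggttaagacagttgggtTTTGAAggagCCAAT
Ube2c (plus strand, chr2:164769779-164769925): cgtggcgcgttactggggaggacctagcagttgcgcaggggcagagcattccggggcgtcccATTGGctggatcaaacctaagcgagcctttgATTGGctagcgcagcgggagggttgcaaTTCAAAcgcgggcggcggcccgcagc
Cdkn3 (plus strand, chr14:46760391-46760537): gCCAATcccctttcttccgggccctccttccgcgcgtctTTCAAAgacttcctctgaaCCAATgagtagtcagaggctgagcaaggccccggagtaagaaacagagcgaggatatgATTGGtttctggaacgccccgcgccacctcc
Cdc25a (plus strand, chr9:109875429-109875575): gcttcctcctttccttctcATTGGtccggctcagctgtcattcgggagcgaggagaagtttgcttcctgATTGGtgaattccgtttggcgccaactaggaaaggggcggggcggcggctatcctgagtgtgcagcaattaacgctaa
Cdc25b (plus strand, chr2:131186798-131186944): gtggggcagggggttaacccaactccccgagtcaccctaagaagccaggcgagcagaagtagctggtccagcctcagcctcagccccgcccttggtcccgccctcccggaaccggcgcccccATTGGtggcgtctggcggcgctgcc
The windows of Fbxo5, Pttg1 and Fzr1 ran further into the annotated gene and are not printed. In the full RefSeq promoter (250 bases before the start to 50 after it), TTTGAA was found once each in Cdc20, Ube2c, Cdkn3 and Fbxo5. In Fbxo5 it began at base 4, the start being base 1. TTTGAA was not found in Cdc25a, Cdc25b, Pttg1 or Fzr1. Among 32851 promoters of that length, 17.9% hold it. CCAAT was found 6 times in Ube2c, 4 in Cdkn3, 3 in Fbxo5, 2 in Cdc20 and in Cdc25a, 1 in Cdc25b and in Fzr1 and 0 in Pttg1, and 37.4% of all promoters hold at least 1. No TTTGAA match overlapped a CCAAT match, and 6.95% of all promoters hold both. Pif1 had no entry in the promoter table. A match of letters is a description and not a binding site.

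The first question was how DNA damage changes the amount of each mRNA bound to ribosomes. With etoposide, 4 of the 9 members fell (Ube2c, Cdkn3, Pif1 and Fbxo5) and none rose, against a background of 12.7% of all 12755 genes tested called in either direction and 4.81% called lower (edgeR, adjusted p under 0.01). Cdkn3 fell to 17.7% of its LPS level, Pif1 to 18.97%, Ube2c to 25.5% and Fbxo5 to 50.0%. The median log2 fold change of the 9 members was -0.95, against 0.026 over all genes. With the pool as a block, the count of members called was 6, with Cdc25b and Fzr1 added. The count of all genes called rose from 1618 to 3403 of the 12755 between these fits.

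**Figure D1:**
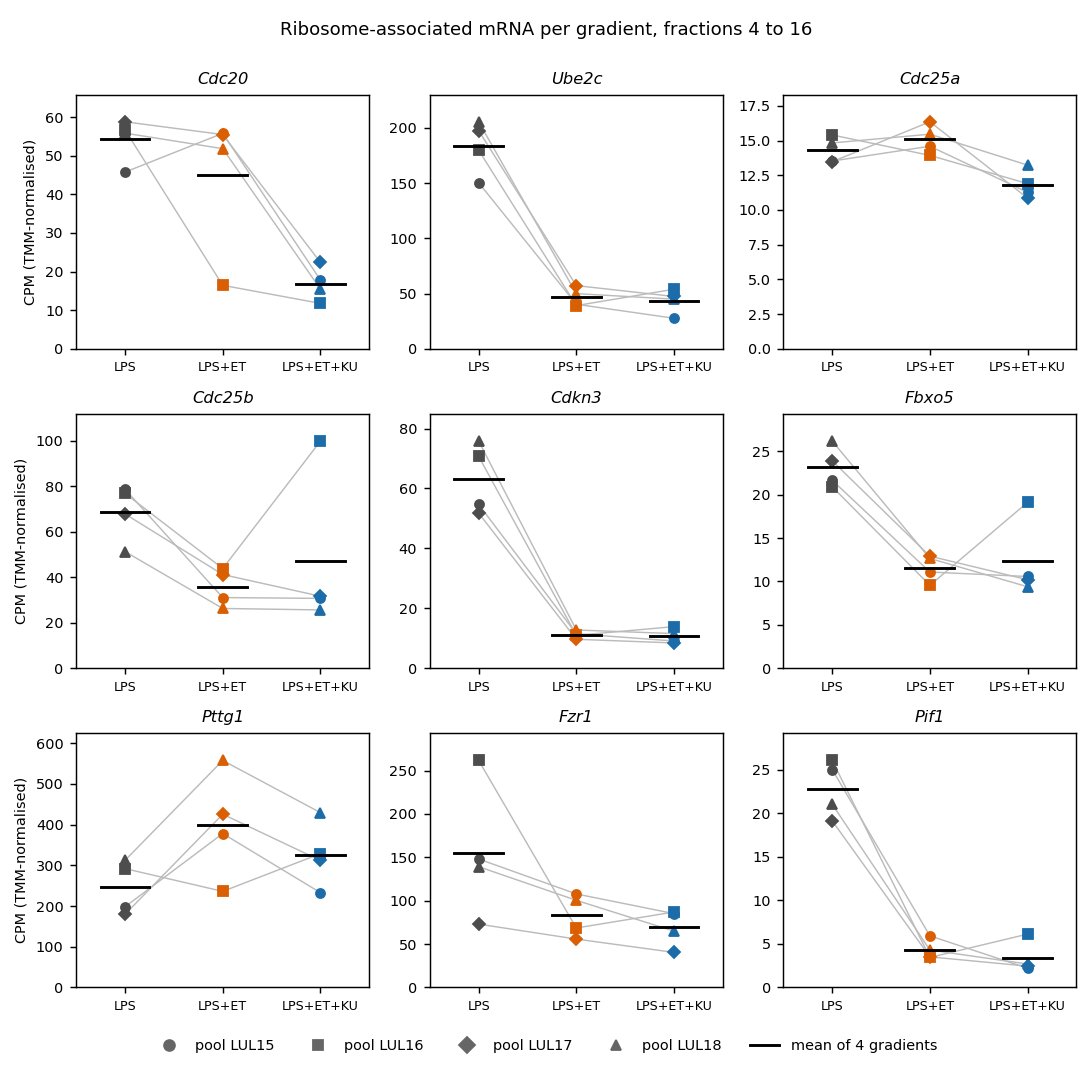
Level of each member in the 12 gradients, as TMM-normalised CPM over fractions 4 to 16 on linear axes that start at 0. Each symbol is 1 gradient, grey lines join gradients of the same pool and black bars are means of 4 gradients. Ube2c, Cdc25b, Cdkn3, Fbxo5, Fzr1 and Pif1 drop in all 4 pools between LPS and LPS+ET. Cdc20 and Cdc25a drop in all 4 pools between LPS+ET and LPS+ET+KU.

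Cdc20, the activator of the APC/C at anaphase, stood at 45.7, 56.7, 58.8 and 55.8 CPM with LPS alone, in the order LUL15, LUL16, LUL17, LUL18. In LPS+ET the values were 55.8, 16.4, 55.5 and 51.8 CPM. Only the LUL16 gradient was low, and the other 3 lay among the LPS values. The log2 fold change of -0.27 ± 0.31 (SE) was not called (edgeR adjusted p = 0.601), and without the LPS+ET gradient of LUL16 it was -0.0040. Within that gradient Cdc20 was low in every class, at 5.63 CPM in monosomes, 8.35 in light and 39.3 in heavy polysomes. The same pool's LPS gradient held 14.9, 29.3 and 85.5 CPM.

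Ube2c, the E2 enzyme of the APC/C, stood at 150, 180, 198 and 206 CPM in LPS (same order of pools) and at 40.3, 39.1, 57.2 and 50.0 CPM in LPS+ET. Every LPS+ET gradient was far below every LPS gradient, and the log2 fold change was -1.97 ± 0.22 (edgeR adjusted p = 3.54e-05). It held in all 12 fits that left out a gradient (adjusted p up to 2.62e-04).

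Fzr1, the activator of the APC/C from late mitosis into G1, stood at 148, 262, 73.0 and 139 CPM in LPS and at 108, 68.6, 55.8 and 100 CPM in LPS+ET. The groups overlapped, but within each pool LPS+ET was the lower, by between 0.39 and 1.93 on the log2 scale. The log2 fold change of -0.90 ± 0.36 was not called without the pool (edgeR adjusted p = 0.0880) and was called with the pool as a block (-0.80 ± 0.21, adjusted p = 0.00816).

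Pttg1 encodes securin, the inhibitor of separase that the APC/C destroys at anaphase, and had the largest values in LPS+ET rather than in LPS. It stood at 198, 292, 180 and 312 CPM in LPS and at 378, 236, 426 and 558 CPM in LPS+ET. The groups overlapped through the LPS+ET gradient of LUL16, the only pool in which LPS+ET was the lower. The log2 fold change of 0.70 ± 0.28 was not called (edgeR adjusted p = 0.0883, and 0.0151 with the pool as a block).

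Fbxo5, the inhibitor of the APC/C, stood at 21.7, 20.9, 23.9 and 26.2 CPM in LPS and at 11.1, 9.55, 12.9 and 12.6 CPM in LPS+ET. The groups did not overlap, and the log2 fold change was -0.999 ± 0.23 (edgeR adjusted p = 0.00633). The call is near the threshold: it held in 4 of the 12 fits that left out a gradient (adjusted p 4.24e-04 to 0.0214) and was lost when all fractions had equal weight (limma, log2 difference -0.74, adjusted p = 0.0938).

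Cdc25a, which acts on CDK2 at the G1 to S step and on CDK1 later, stood at 13.5, 15.4, 13.5 and 14.8 CPM in LPS and at 14.6, 13.9, 16.3 and 15.5 CPM in LPS+ET. The ranges overlapped, and the log2 fold change was 0.077 ± 0.14 (edgeR adjusted p = 0.762). Counts were modest, 89 to 271 per gradient over all groups.

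Cdc25b, which starts the activation of CDK1 at the entry into mitosis, stood at 78.7, 76.9, 67.8 and 51.3 CPM in LPS and at 31.1, 43.8, 41.2 and 26.3 CPM in LPS+ET. All 4 LPS+ET values were below all 4 LPS values. The log2 fold change of -0.95 ± 0.38 was not called without the pool (edgeR adjusted p = 0.0904) and was called with the pool as a block (-0.97 ± 0.24, adjusted p = 0.00569). It was also called when the LPS+ET+KU gradient of LUL16, a member of neither group compared, was left out of the shared estimate of the spread (adjusted p = 0.00327).

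Cdkn3, a phosphatase that removes the activating phosphate from cyclin-dependent kinases, stood at 54.7, 70.7, 51.7 and 75.8 CPM in LPS and at 11.5, 11.0, 9.63 and 12.7 CPM in LPS+ET. The LPS+ET gradients were tightly grouped and far below them (log2 fold change -2.50 ± 0.21, edgeR adjusted p = 3.80e-06). Pif1, a DNA helicase that unwinds G-quadruplexes and acts at telomeres and replication forks, stood at 25.03, 26.1, 19.1 and 21.04 CPM in LPS and at 5.93, 3.44, 3.51 and 4.30 CPM in LPS+ET. Its log2 fold change was -2.40 ± 0.32 (edgeR adjusted p = 1.36e-04), on 22 to 76 counts per LPS+ET gradient. Both kept their call in all 12 fits that left out a gradient.

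All of these are levels relative to the other mRNAs of the same gradient. Fewer cells in the phases that make an mRNA and less of it per cell cannot be told apart in such bulk samples, and the share of cells in each phase of the cycle was not measured here. The direction of Ube2c, Cdkn3, Pif1 and Fbxo5 was the same in 6 of 6 alternative fits and scalings, and that of Cdc25a turned in 1 of the 6, where the difference was -0.010.

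Ube2c, Cdkn3 and Pif1 fell in monosomes, light polysomes and heavy polysomes. In monosomes 3 of 9 members were called, all lower (Ube2c, Cdkn3 and Pif1, background 9.52%), in light polysomes 4 (the same and Fbxo5, background 10.6%) and in heavy polysomes 3 (as in monosomes, background 9.69%). With the pool as a block the counts were 6, 6 and 4. The counts of all genes called were then 2195, 2482 and 2338, against 850, 1055 and 1101 without the block. Ube2c had a log2 fold change of -1.47 ± 0.34 in monosomes, -2.41 ± 0.27 in light and -1.79 ± 0.27 in heavy polysomes (edgeR adjusted p = 0.00817, 3.12e-05 and 3.59e-04). The monosome call of Ube2c held in 5 of 12 fits that left out a gradient.

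Cdkn3 had log2 fold changes of -1.91 ± 0.31, -2.58 ± 0.22 and -2.59 ± 0.33 in the same order (edgeR adjusted p = 7.25e-04, 3.80e-06 and 8.81e-05), and Pif1 had -2.99 ± 0.49, -2.70 ± 0.40 and -2.13 ± 0.35 (6.98e-04, 2.88e-04 and 6.94e-04). Monosome counts of Pif1 were few, 1 to 8 per gradient in LPS+ET. Fbxo5 was called in light polysomes (-1.04 ± 0.23, edgeR adjusted p = 0.00635), and that call held in 5 of 12 fits that left out a gradient. In heavy polysomes Fbxo5 had -1.01 ± 0.31 (adjusted p = 0.0359) and in monosomes -0.64 ± 0.29 (0.141).

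Cdc25b had -0.95 ± 0.41, -0.86 ± 0.44 and -1.01 ± 0.31 in monosomes, light and heavy polysomes, none called without the pool (edgeR adjusted p = 0.126, 0.196 and 0.0350) and all 3 called with it as a block (0.00814, 0.00734 and 0.00261). Fzr1 was called with the pool as a block in monosomes and light polysomes (adjusted p = 0.00158 and 5.65e-04) and not in heavy polysomes (0.0163). Pttg1 was called higher in monosomes with the block (0.46 ± 0.12, adjusted p = 0.00566). Differences between the classes were not tested on these folds.

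**Figure D2:**
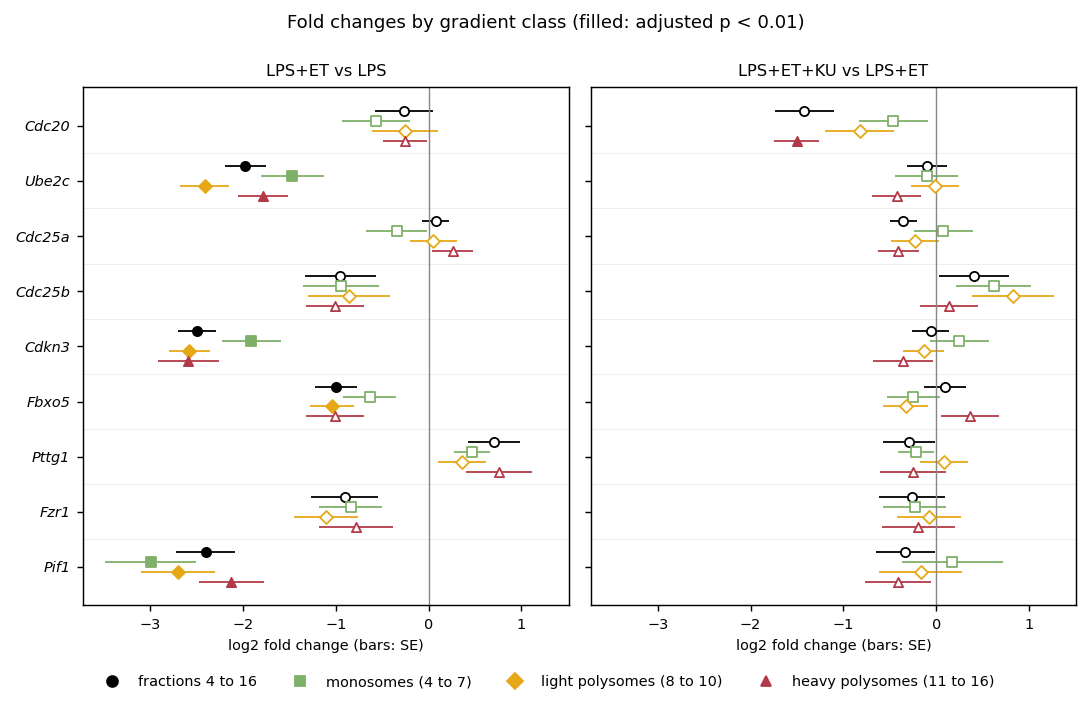
Log2 fold change of each member over fractions 4 to 16 and in monosomes, light and heavy polysomes, for LPS+ET against LPS (left) and LPS+ET+KU against LPS+ET (right), with bars of 1 SE and filled symbols for edgeR adjusted p under 0.01 without the pool. Filled symbols on the left belong to Ube2c, Cdkn3, Pif1 and Fbxo5, and the only filled symbol on the right is Cdc20 in heavy polysomes.

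The second question was how gradients with the ATM inhibitor and etoposide differed from those with etoposide alone. No group had KU55933 without etoposide, and per the labels LPS+ET+KU had 47 h of LPS and LPS+ET 48 h. ATM inhibition during damage, other effects of the inhibitor and the time in LPS therefore cannot be told apart. This comparison shares the LPS+ET gradients with the first, so the folds of the pair are not independent. Over fractions 4 to 16, none of the 9 members was called in LPS+ET+KU against LPS+ET (edgeR, background 0.455% of all genes called), while 1 was called by DESeq2 and 1 with the pool as a block, Cdc20 both times. At an unadjusted p under 0.05 there were 2 members, against 15.9% of all genes.

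Cdc20 stood at 17.8, 11.8, 22.4 and 15.5 CPM in LPS+ET+KU. These values lie far below the 51.8 to 55.8 CPM of 3 of the LPS+ET gradients and overlap only the LUL16 gradient (16.4 CPM). Within the pools the log2 difference was below 0 in 4 of 4, from -1.74 to -0.48. The log2 fold change was -1.42 ± 0.32 (edgeR adjusted p = 0.0378), and -1.38 ± 0.25 with the pool as a block (0.00298). Without the LPS+ET gradient of LUL16 it was -1.69 (adjusted p = 0.00155), and with equal weight per fraction -0.93 (limma adjusted p = 0.219).

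In heavy polysomes the 4 LPS+ET+KU gradients of Cdc20 (19.9 to 28.2 CPM) lay below the 4 LPS+ET gradients (39.3 to 76.0 CPM). Cdc20 was the 1 member called there (log2 -1.50 ± 0.24, edgeR adjusted p = 0.00659, background 0.572%). With the pool as a block the adjusted p was 6.49e-04, but without it only 1 of the 12 fits that left out a gradient, in any group, kept the call (adjusted p up to 0.0312, log2 -1.67 to -1.41). In light polysomes Cdc20 had -0.82 ± 0.37 (adjusted p = 0.310) and in monosomes -0.46 ± 0.37 (0.655). Its counts per LPS+ET gradient were fewer there, 22 to 114 and 11 to 22, against 72 to 651 in heavy polysomes. Differences between the classes were not tested. No member was called in light polysomes or monosomes by edgeR, with or without the pool, or by DESeq2 (edgeR backgrounds 0.213% of genes called in monosomes and 0.292% in light polysomes). At an unadjusted p under 0.05 there were 0 members in monosomes and 1 in light polysomes, against 13.5% and 15.3% of all genes.

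Cdc25a stood at 11.3, 11.9, 10.9 and 13.2 CPM in LPS+ET+KU, each value just below the lowest of LPS+ET (13.9 CPM). The log2 fold change of -0.35 ± 0.15 was not called (edgeR adjusted p = 0.244, and 0.0835 with the pool as a block), and it was 0.069 when all fractions had equal weight (limma). Ube2c stood at 27.7, 53.9, 47.4 and 45.0 CPM (log2 -0.10 ± 0.21, edgeR adjusted p = 0.868). Cdkn3 stood at 9.06, 13.8, 8.405 and 11.5 CPM (-0.060 ± 0.20, adjusted p = 0.922). Both remained far below the LPS values given above.

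The LPS+ET+KU gradient of LUL16 stood out for 3 members. Cdc25b was at 99.9 CPM there and at 30.7, 31.6 and 25.6 CPM in the other 3 pools, so that its log2 fold change was 0.41 ± 0.38 with that gradient and -0.27 without it (edgeR adjusted p = 0.663 and 0.556). Fbxo5 was at 19.1 CPM there and at 10.6, 10.2 and 9.38 CPM in the others, with log2 fold changes of 0.095 ± 0.23 with it and -0.20 without it (edgeR adjusted p = 0.887 and 0.587). Pif1 was at 6.13 CPM there and at 2.21, 2.45 and 2.69 CPM in the others, with log2 fold changes of -0.33 ± 0.32 with it and -0.81 without it (edgeR adjusted p = 0.673 and 0.0961). Pttg1 stood at 233, 329, 312 and 429 CPM (-0.29 ± 0.28, adjusted p = 0.668) and Fzr1 at 85.1, 87.0, 40.4 and 64.9 CPM (-0.26 ± 0.36, adjusted p = 0.781), both overlapping LPS+ET.

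Against LPS, 4 members were called lower in LPS+ET+KU (background 10.7%) and none higher. They were Cdkn3 (log2 -2.56 ± 0.21, edgeR adjusted p = 6.43e-06), Pif1 (-2.73 ± 0.32, 9.25e-05), Ube2c (-2.07 ± 0.22, 4.55e-05) and Cdc20 (-1.69 ± 0.32, 0.00271). Cdc20 kept the call in 11 of 12 fits that left out a gradient (highest adjusted p 0.0109, without the LPS+ET+KU gradient of LUL18) and lost it with equal weight per fraction (limma, log2 -1.21). Fbxo5 (-0.90 ± 0.23, adjusted p = 0.0120) and Fzr1 (-1.17 ± 0.36, 0.0328) were not called without the pool, and both were called with it as a block and by DESeq2 (6 members each). Those fits called 3589 and 2263 of all genes, against 1361 by edgeR without the pool. Fbxo5 was also called where the LPS+ET+KU gradient of LUL16 was left out (-1.21, adjusted p = 3.48e-04). Cdc25b was called in this comparison only where the LPS+ET+KU gradient of LUL16 was left out (log2 -1.23, adjusted p = 0.00165). Cdc25a (-0.28 ± 0.14, adjusted p = 0.187) and Pttg1 (0.41 ± 0.28, 0.310) were not called.

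Members with like or opposed roles were also compared within each gradient, as the log2 ratio of their counts, in 3 pairs and 2 comparisons (6 exact permutation tests, two-sided, whose smallest p is 0.0286). Cdc25a relative to Cdc25b went from -2.24 in LPS to -1.21 in LPS+ET, a difference of 1.03 (pooled SD 0.35, exact p = 0.0286, adjusted p = 0.0858), higher in 4 of 4 pools. Pttg1 relative to Fbxo5, an inhibitor of separase against an inhibitor of the APC/C, went from 3.37 to 5.05, a difference of 1.68 (pooled SD 0.37, exact p = 0.0286, adjusted p = 0.0858), also in 4 of 4 pools. The ratios did not overlap between the groups in either pair, and both raw p-values are the smallest the design allows.

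The ratio of the activators Cdc20 and Fzr1 overlapped between the groups. It differed by 0.39 between LPS+ET and LPS (exact p = 0.486, above 0 in 4 of 4 pools) and by -1.02 between LPS+ET+KU and LPS+ET (exact p = 0.171, adjusted p = 0.342), the latter below 0 in 4 of 4 pools. The remaining differences in LPS+ET+KU against LPS+ET were -0.54 for Cdc25a over Cdc25b (exact p = 0.371, below 0 in 4 of 4 pools) and -0.30 for Pttg1 over Fbxo5 (exact p = 0.371, below 0 in 3 of 4).

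Polysome distribution was described as the share of a gene's summed CPM that lay in each fraction of a gradient, after each library was scaled to the same total. The libraries were made from equal RNA concentrations, so these shares weigh all fractions equally and do not give shares of molecules. A gene spread evenly would have 46.2% in the 6 heavy polysome fractions, and the median gene had 55.3% there with LPS alone, 54.1% after etoposide and 54.6% with KU55933 as well.

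**Figure D3:**
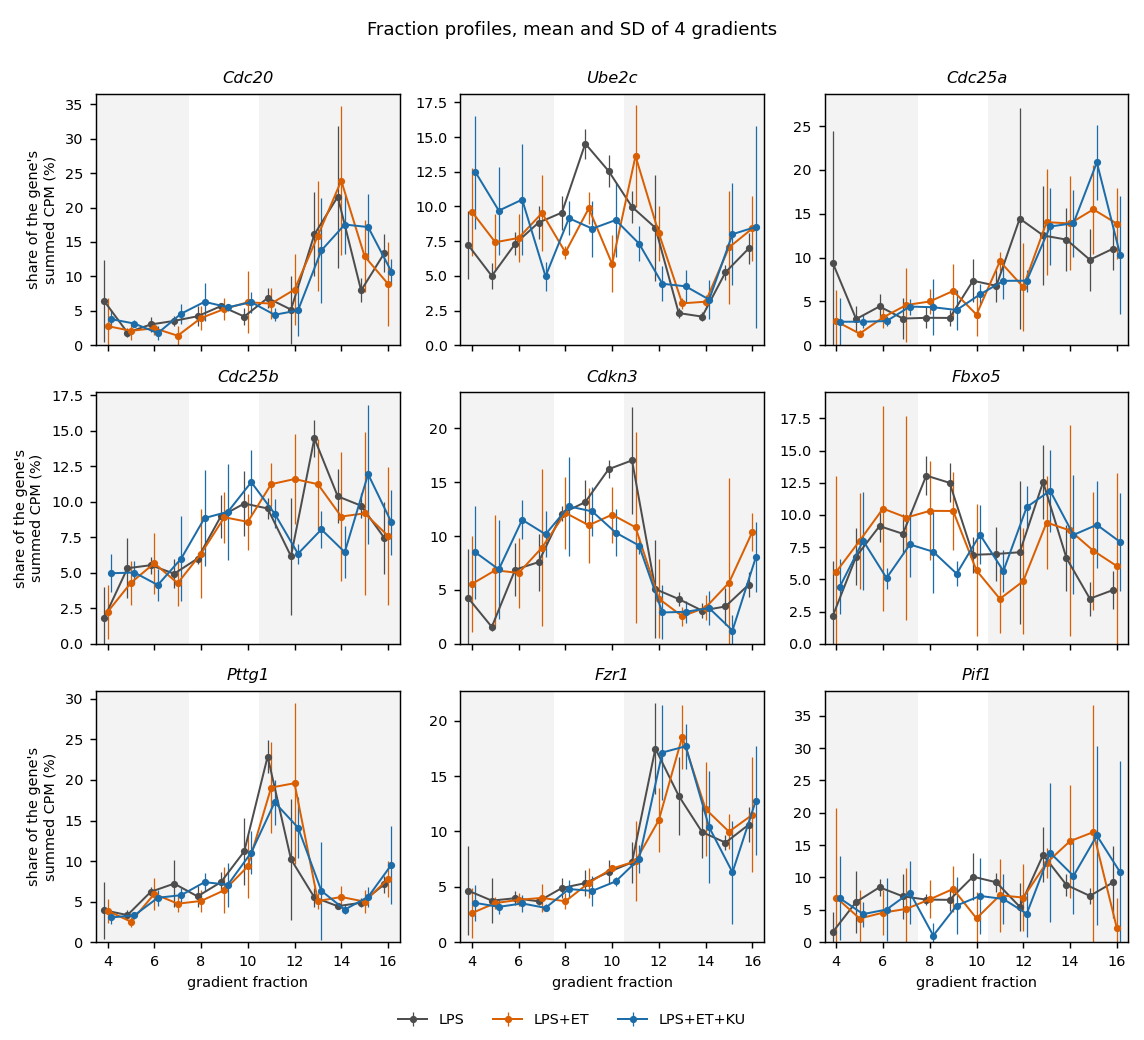
Share of each member's summed CPM by fraction, mean and SD of 4 gradients, with monosome and heavy polysome fractions shaded. Cdc20, Cdc25a and Fzr1 lie mostly in fractions 12 to 16, Pttg1 peaks at fractions 11 and 12, and Ube2c, Cdkn3 and Fbxo5 lie further towards light polysomes and monosomes.

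The members differed in where they sat. In LPS, Cdc20 had 71.1% ± 5.99 in heavy polysomes (SD, n = 4) and peaked in fraction 14, with 21.6% of its signal. Fzr1 had 67.4% ± 4.96 with a peak in fraction 12, and Cdc25a 66.6% ± 15.1 with its highest mean share in fraction 12 (14 with the libraries of a fraction pooled). The wide SD of Cdc25a goes with an LPS gradient in which the shallow fraction 4 library took 31.6% of its signal, and with libraries weighted by depth the share was 67.4% ± 3.94. These 3 lay above the median gene. Cdc25b had 57.6% ± 1.69, Pttg1 55.1% ± 4.95 and Pif1 53.4% ± 7.10, all near the median gene. Pttg1 was the most sharply placed of them, with 22.9% ± 2.07 of its signal in fraction 11.

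Fbxo5 had 41.0% ± 4.03 in heavy polysomes, Cdkn3 38.3% ± 5.72 and Ube2c 35.05% ± 3.33, and their highest mean shares in LPS were in fraction 8, 11 and 9. With the libraries of a fraction pooled, their peaks were in fraction 8, 10 and 9. Cdkn3 dropped from 17.0% ± 5.01 in fraction 11 to 5.07% ± 4.53 in fraction 12. The LPS library of fraction 12 in pool LUL17 held only 32306 counts in all, so this drop rests in part on few counts. The light polysomes, 3 of the 13 fractions, held 41.5% ± 2.47 of Cdkn3, 36.6% ± 2.39 of Ube2c and 32.5% ± 4.12 of Fbxo5. The lengths of the coding regions were not examined.

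The next question was whether treatment moved the mRNAs along the gradient. The heavy polysome share of no member was called in either comparison (limma on log2 odds, backgrounds 0.312% and 0% of 8000 genes), with or without the pool. At an unadjusted p under 0.05 there were 0 members for etoposide, against 20.6% of all genes, and 2 for added KU55933, against 8.56%.

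Those 2 were Fbxo5 and Cdc25b. The share of Fbxo5 in heavy polysomes was 39.4, 41.1, 40.6 and 38.1% in LPS+ET and 46.9, 59.1, 52.7 and 56.3% in LPS+ET+KU. All 4 LPS+ET+KU values were above all 4 LPS+ET values, a log2 odds difference of 0.81 ± 0.20 (SE) that did not pass over all genes (limma adjusted p = 0.269). The separation depends on the scaling. With counts as deposited the ranges were 22.95 to 62.7% and 41.9 to 65.6% (log2 odds difference 0.11 ± 0.55), and with classes pooled 37.9 to 45.4% and 43.4 to 58.2% (0.57 ± 0.23), and both overlapped. For Cdc25b the values were 61.4, 56.9, 63.7 and 56.9% in LPS+ET and 57.2, 37.3, 53.8 and 53.4% in LPS+ET+KU (-0.55 ± 0.24, adjusted p = 0.557), with the LUL16 gradient again lowest.

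**Figure D4:**
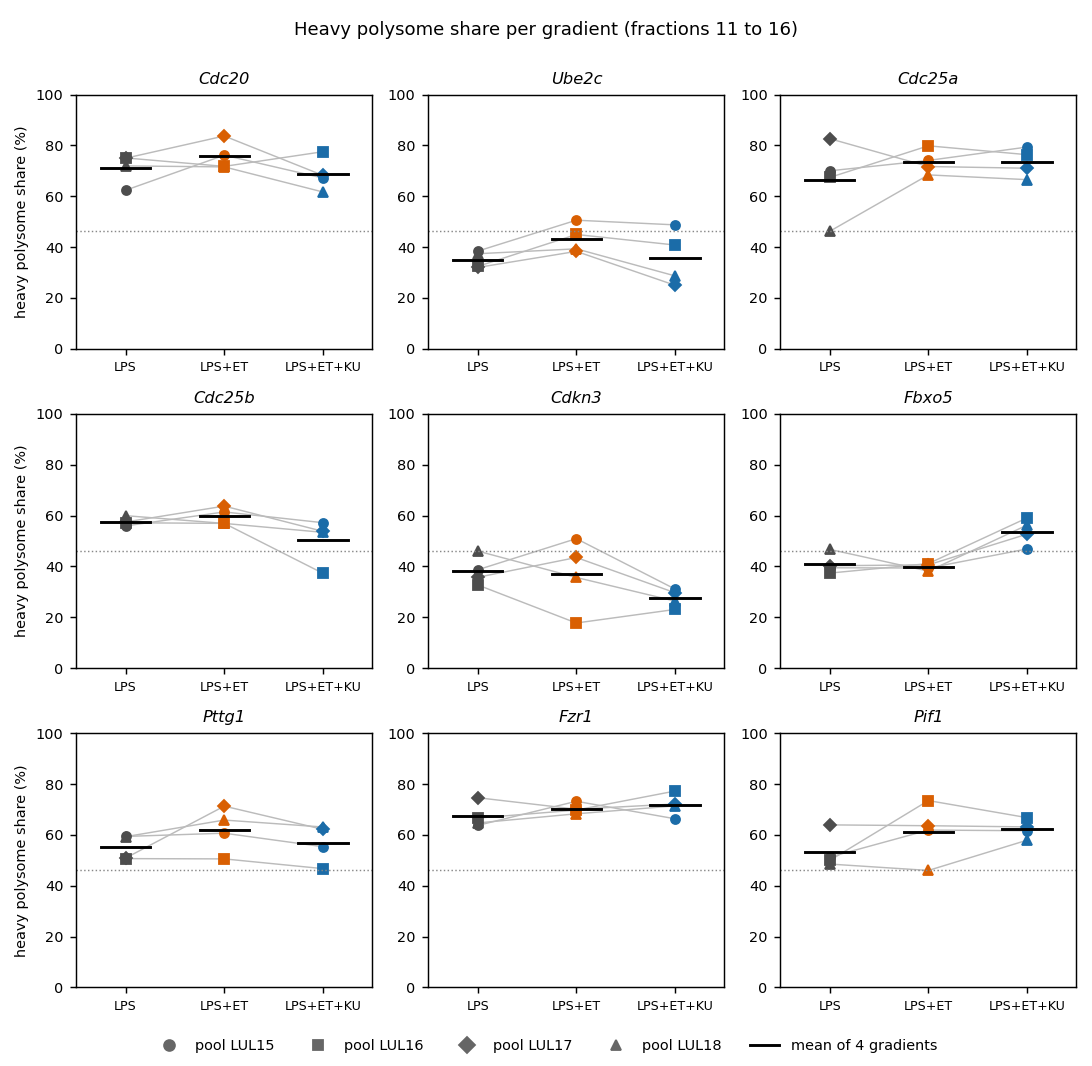
Heavy polysome share of each member (percent of its summed CPM in fractions 11 to 16) in the 12 gradients, with symbols for pools, black bars for means of 4 gradients and a dotted line at the 46.2% of an even spread. With each library scaled to the same total, as drawn, the 4 LPS+ET+KU values of Fbxo5 lie above the 4 LPS+ET values and the other members overlap between these groups, while Fbxo5 overlaps too with counts as deposited or with classes pooled.

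In the test of whole profiles, a treatment by fraction interaction over all single-fraction libraries of the groups compared, no member was called either (edgeR, backgrounds 1.37% of genes called for etoposide and 1.05% for added KU55933). The libraries of 1 gradient are not independent, though the test counts each as a unit. At an unadjusted p under 0.05 there were 2 members and 1, against 13.3% and 9.2% of all genes. With a term for each gradient, Ube2c was called in LPS+ET against LPS (adjusted p = 3.40e-04, and 0.0833 without that term). The genes called for etoposide were then 593, against 142 without the term, and for added KU55933 380, against 110. Cdkn3 stood next (0.0115 and 0.154).

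The profile of Ube2c in LPS rose to fraction 9 (14.5% ± 1.09 of its signal) and fraction 10 (12.5% ± 1.14). In LPS+ET these fractions held 9.86% ± 1.16 and 5.86% ± 2.06, and the highest share was in fraction 11 (13.6% ± 3.67). The light polysome share went from 36.6% ± 2.39, range 33.8 to 39.5%, to 22.4% ± 3.10, range 17.8 to 24.5%, so that the groups did not overlap. The light polysome share was not tested, is given for this scaling alone and was not set against that of all genes. The monosome share stood at 28.3% ± 2.10 and 34.3% ± 5.55 and the heavy polysome share at 35.05% ± 3.33 and 43.3% ± 5.67. The heavy polysome share depends on the scaling. It was 45.2% ± 9.21 and 51.1% ± 22.6 with counts as deposited, and 37.5% ± 4.64 and 40.4% ± 10.6 with classes pooled. In LPS+ET+KU the light polysomes held 26.6% ± 3.74. The profile rests on 2085 counts in LPS+ET against 9483 in LPS, summed over the 4 gradients.

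Among the other members, Cdc20 had its highest mean share in fraction 14 in all 3 groups. Fzr1 had it in fraction 12 in LPS and 13 in the other groups, and Pttg1 in fraction 11, 12 and 11. With the 4 libraries of a fraction pooled, so that deep libraries weigh more, 2 of these peaks differed. In LPS+ET+KU that of Cdc20 was then fraction 15 and that of Fzr1 fraction 12, as in LPS. Profiles of Pif1 in both etoposide groups rest on 193 and 229 counts over 52 libraries each, and their single fractions are too uncertain to compare.

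The genes around the members were taken from 6 lists of the same pathway. With etoposide, edgeR called 4.81% of all 12755 genes lower and 7.88% higher, the background for each list. That is 1618 genes, against 3403 called in either direction with the pool as a block. None of the 15 tested APC/C subunits and E2 enzymes was called with etoposide (edgeR, 4 at an unadjusted p under 0.05, against 34.4% of all genes, 1 called higher by DESeq2, median log2 0.028, against 0.026 over all genes), although a block for the pool called 1 higher and 2 lower. Of 20 APC/C substrates, 9 were called lower and none higher (median log2 -1.01), with 12 lower and 1 higher with the block. The 6 largest were Plk1, a mitotic kinase (log2 -2.39 ± 0.32, adjusted p = 1.34e-04), Cenpf, a kinetochore protein (-1.63 ± 0.28, 0.00102), Aurka, the spindle pole kinase (-1.62 ± 0.29, 0.00127), Ccnb1, which encodes cyclin B1 (-1.50 ± 0.20, 1.66e-04), Prc1, a midzone protein (-1.25 ± 0.25, 0.00300), and Tpx2, the activator of Aurka (-1.24 ± 0.29, 0.00756).

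Of 15 checkpoint, separase and cohesin genes, 2 were called lower and none higher (median log2 -0.60), Pds5b, a cohesin regulator (-1.51 ± 0.18, edgeR adjusted p = 7.18e-05), and Bub1b, a mitotic checkpoint protein (-1.03 ± 0.21, 0.00332), and 5 with the block. Of 19 genes of CDK1, its kinases and the control of Cdc25, 2 were called, against 12.7% of all genes in either direction. Chek2, a checkpoint kinase that acts on Cdc25 proteins, rose (1.64 ± 0.28, edgeR adjusted p = 0.00102) and Atm, the target of KU55933, fell (-0.98 ± 0.21, 0.00417). The median of that list was -0.36, and the block called 5 lower and 1 higher. Chek2 had 12 to 26 counts per LPS gradient.

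Of 13 mitotic exit phosphatase and Greatwall genes, 2 were called, against 12.7% of all genes in either direction. Ppp2r5c, a regulatory subunit of PP2A, was called lower (-0.61 ± 0.14, edgeR adjusted p = 0.00569) and Cdc14b, a phosphatase, higher (adjusted p = 0.00369). Cdc14b had 3 counts in all LPS gradients together and 27 in LPS+ET, so its fitted fold depends on the prior count and is not given. With the block 2 were lower and 1 higher, and the median was -0.23. Of 14 DREAM and E2F repressor genes 1 was called, against the same 12.7%. This was Rbl2, which encodes the pocket protein p130, and it rose (1.22 ± 0.26, edgeR adjusted p = 0.00437, median of the list -0.026). With the block 2 were higher and 2 lower.

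In LPS+ET+KU against LPS+ET, none of the genes of these 6 lists passed the threshold (edgeR without the pool, 18 of 96 at an unadjusted p under 0.05, against 15.9% of all genes, 3 called by DESeq2, all lower). With the pool as a block 3 of 20 APC/C substrates were called lower, 1 APC/C gene higher and 1 gene of Cdc25 control lower. In each direction 1 DREAM gene was called there. Without the LPS+ET and LPS+ET+KU gradients of LUL16 the substrates called lower were 5. Of all genes, 58 were called by edgeR without the pool, 412 by DESeq2, 811 with the block and 305 without those gradients. The median of the substrates was -0.49, and 20 of 20 had a log2 fold change below 0, against a median of 0.037 over all genes.

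Last, the tested genes whose levels followed a member most closely over the 12 gradients were listed, as a description. For Cdc20 they were Sfpq, Eif2s1, Pdhx, Mipol1 and Kif20a (Pearson r of log2 CPM 0.94 to 0.97). For Cdc25a they were Gm9800, Afp, Ptma, Rbm4 and Emp3 (0.90 to 0.93), and for Cdc25b Plin3, Mtmr3, Trak1, AW554918 and Cep70 (0.94 to 0.97). The points share pools, treatments and the LUL16 gradients described above.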

How the data were processed

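Counts of mRNA 3′ ends per gene were deposited for 157 libraries, and the deposited values are raw counts without normalization. Per the methods, the authors reverse transcribed the same RNA concentration from each fraction, removed PCR duplicates by random bases and aligned the tags to GRCm38. TopHat2 2.0.12, HTSeq and DESeq2 1.6.3 are named in the submitters' processing notes. Of the columns, 79 matched 1 labelled sample and 78 a treatment and fraction only, so gradients are named by treatment and pool. Labels name the sucrose range differently in separate fields, so none is given.

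Counts were summed per gradient, over fractions 4 to 16 and over each class, and tested with edgeR 4.0.16 (TMM, default expression filter, quasi-likelihood F-test, SE as the absolute log2 fold change over the square root of F) in R 4.3.3 on 12 gradients, with treatment as the only term. P-values were adjusted by Benjamini-Hochberg over all genes and called under 0.01. The interaction used the single-fraction libraries of 2 treatments. Heavy polysome shares used libraries scaled to CPM, genes that averaged at least 100 counts in a gradient, 0.5 added to each side of the odds, and limma 3.58.1. Pair ratios had 0.5 counts added. Alternatives used DESeq2 1.42.0, RLE factors, no filter, equal weight per fraction (log2 of CPM plus 0.5), the 8 compared gradients, an adjusted p under 0.05, the pool as a block, and each gradient left out. The scripts were tested on simulated data.

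Pools were taken to pair the gradients: deviations of log2 CPM from treatment means correlated at 0.305 to 0.799 in all 12 same-pool pairs and at -0.628 to 0.284 in 36 other pairs, across genes, which are not independent. The pool is a code in the column names, which do not say what it stands for. The study describes its gradients as biological replicates, and nothing in the names ties a pool to particular animals. Gene IDs were paired with symbols in the table, positions come from GENCODE M21 on GRCm38, and promoter sequence and starts from RefSeq (GRCm38.p6), which held 8 of the 9 members. The members and gene lists were chosen with earlier results of these data known. Named genes were all members, for 3 of them the 5 most correlated genes, and up to 6 genes per list with the largest change among those called in LPS+ET against LPS. The number of counts limits precision, and intervals reflect spread between gradients.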

Additional observations from a re-analysis of the deposited data

Results flagged for a closer look

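In 54 groups of 4 gradients (the level and the heavy polysome share of each member in each treatment), 4 held a gradient whose gap to the nearest of the others passed Dixon's critical value for 4 samples. Chance flags about 5% of groups, and the groups share gradients. All 4 were levels, and all 4 gradients belonged to pool LUL16.

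Cdc20 stood at 16.4 CPM in the LPS+ET gradient of LUL16 and at 51.8 to 55.8 CPM in the other 3 LPS+ET gradients. In the LPS+ET+KU gradient of LUL16, Cdc25b stood at 99.9 CPM (25.6 to 31.6 CPM in the others), Fbxo5 at 19.1 CPM (9.38 to 10.6 CPM) and Pif1 at 6.13 CPM (2.21 to 2.69 CPM). These gradients had 30.4% and 37.6% of their counts in heavy polysome libraries, the lowest shares of the 12 gradients. The part of this in the 4 levels was not tested.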

How the results depend on the processing

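The falls of Ube2c, Cdkn3 and Pif1 with etoposide kept their direction and call over fractions 4 to 16 under every alternative run. Members called moved by over 1.5 times in 3 places: with added KU55933 1 was called with the pool as a block, by DESeq2, at an adjusted p under 0.05 and without the LPS+ET and LPS+ET+KU gradients of LUL16 (an alternative chosen after seeing the data), in monosomes 6 with the block, and in the profile test 1 with a term per gradient. The block pairs gradients by pool. The genes called under it were 3403, 811 and 3589 (etoposide, added KU55933, and both against LPS), 2195 and 502 in monosomes, 2482 and 531 in light and 2338 and 372 in heavy polysomes, and 593 and 380 in the profile test. DESeq2 called 412 and 2263 genes (LPS+ET+KU against each other group), 110 in monosomes and 203 in light polysomes (added KU55933), and 1762 and 279 in heavy polysomes. An adjusted p under 0.05 gave 2875, 319 and 2903, and leaving out the 2 LUL16 gradients 2572, 305 and 2333. For added KU55933, equal weight per fraction gave 21, the 8 compared gradients alone 0, and monosomes without a filter 37. Genes called for heavy polysome share with etoposide were 0 with counts as deposited, 71 at 400 or more counts, 16 with heavy as fractions 11 to 15 and 76 with classes pooled (also chosen after seeing the data), and with KU55933 2 and 1 in the last pair of settings. The causes were not tested.

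No called fold of a member changed direction. Cdc25a turned with equal weight per fraction (-0.0102, 0.0689 and 0.0587 in the 3 comparisons) and in light polysomes without a filter (-0.0285). Cdc25b and Fbxo5 turned with added KU55933 without the 2 LUL16 gradients (-0.16 and -0.28). For heavy polysome share (log2 odds), Cdc25b turned with etoposide (-0.0912 with counts as deposited, -0.0247 with classes pooled), and with KU55933 Fzr1 (-0.47 and -0.0512), Pif1 (-0.89 and -0.51, and -0.25 with fractions 11 to 15) and Cdc25a (0.0709 with fractions 11 to 15).

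With each gradient left out, genes called ranged from 1082 to 2088, 19 to 172 and 755 to 1708 over all fractions, 520 to 1077 and 2 to 38 in monosomes, 706 to 1324 and 2 to 52 in light and 721 to 1494 and 9 to 105 in heavy polysomes, 43 to 163 and 30 to 151 in the profile test, and 0 to 16 and 0 to 0 for heavy share. Members called ranged from 3 to 5, 0 to 1 and 3 to 6 over all fractions, 2 to 4 and 0 to 0 in monosomes, 3 to 4 and 0 to 0 in light and 3 to 5 and 0 to 1 in heavy polysomes. Pair differences ranged from 0.89 to 1.19 and -0.81 to -0.10 (Cdc25a over Cdc25b), 0.063 to 0.75 and -1.41 to -0.69 (Cdc20 over Fzr1) and 1.53 to 1.83 and -0.55 to -0.084 (Pttg1 over Fbxo5). Sign flips of the pool differences gave p = 0.125 for 5 of the 6 pair tests (exact permutation), the smallest 4 pools allow, and 0.25 for the other. Left-out gradients also turned the direction of these values, none of them called. The ranges were over all fractions with added KU55933 Ube2c -0.22 to 0.0745, Cdc25b -0.27 to 0.62, Cdkn3 -0.21 to 0.0453, Fbxo5 -0.20 to 0.21. They were in monosomes with added KU55933 Ube2c -0.34 to 0.11, Cdc25a -0.14 to 0.23, Cdc25b -0.0774 to 0.88, Pif1 -0.22 to 0.98. They were in light polysomes with etoposide Cdc20 -0.53 to 0.0195, Cdc25a -0.0826 to 0.16. They were in light polysomes with added KU55933 Ube2c -0.17 to 0.16, Pttg1 -0.0758 to 0.18, Fzr1 -0.22 to 0.14, Pif1 -0.91 to 0.11. They were in heavy polysomes with added KU55933 Cdc25b -0.29 to 0.29, Fbxo5 -0.0938 to 0.54, Pttg1 -0.51 to 0.00461, Fzr1 -0.45 to 0.0387. They were for heavy share with etoposide Cdc25a -0.0177 to 0.80, Cdkn3 -0.44 to 0.31, Fbxo5 -0.14 to 0.0482. They were for heavy share with added KU55933 Cdc25a -0.16 to 0.15, Fzr1 -0.0249 to 0.24, Pif1 -0.25 to 0.30.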

Other observations

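The single library of fraction 17, from an LPS gradient of pool LUL16, held 777 counts. It had 1 count of Cdkn3 and 0 of the other 8 members, and a count of 0 allows up to 3 counts. No level can be read from it.

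Against LPS, the LPS+ET+KU gradients held lower levels of 13 of 20 APC/C substrates and none higher (edgeR adjusted p under 0.01, median log2 fold change -1.50), and 17 were lower with the pool as a block. Of all 12755 genes, edgeR called 4.42% lower and 6.25% higher. That is 1361 genes, against 3589 called in either direction with the block. Of 15 checkpoint, separase and cohesin genes 7 were lower (median -0.86, 10 with the block). None of the 15 APC/C subunits and E2 enzymes was called without the block (edgeR, 5 at an unadjusted p under 0.05, 0 by DESeq2), and 1 was higher and 1 lower with it. These comparisons share the LPS gradients with those of LPS+ET.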
